A study of Homo sapiens with 8 samples.

Results

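Chemokines are small secreted proteins that steer leukocytes along concentration gradients, and their receptors are G protein-coupled receptors on the surface of the moving cell. Here 60 chemokine and chemokine receptor genes of the expression table were examined in the human AML cell line MV4-11, out of 26364 gene symbols in all. Their symbols are made of CCL, CXCL, CCR or CXCR followed by a number, plus CX3CR1 (interleukin 8 is listed under its current symbol CXCL8), and no expression value entered this rule. They comprise 43 ligands and 17 receptors, and 27 of them (16 ligands and 11 receptors) reached 1 TPM (a read share corrected for gene length and scaled to a fixed sum per library) in at least 2 of the 8 libraries. One of the 11 receptors, CXCR2P1, is an untranslated pseudogene of CXCR2.

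MV4-11 cells carry the MLL-AF4 fusion and an internal tandem duplication of FLT3. The control group received the vehicle DMSO, the TCP group 5 μM tranylcypromine (TCP, an inhibitor of the histone demethylase LSD1), the palbociclib group 0.5 μM palbociclib (an inhibitor of the cell cycle kinases CDK4 and CDK6), and the combination group both molecules at these doses. RNA-seq was done on 2 libraries per group, which the labels place at day 4. The methods of the study describe palbociclib being given before the second molecule, so the exposure to TCP may be shorter than the labelled time, and they describe growth of the cell lines on HS-5 human bone marrow stromal cells, which controls and treated cells share. Nothing states whether the 2 libraries of a group came from separate cultures, so the p values measure only the spread between these libraries.

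In myeloid cells, chemokine receptors mark lineage and stage: CCR2 and CX3CR1 are typical of monocytes, CXCR2 of neutrophils, and CXCR4 holds immature cells and leukemic blasts in the marrow by binding CXCL12 from stroma. Ligands such as CCL2, CCL5 and CXCL8 are made by myeloid cells and by stroma alike, and many are induced by inflammatory or interferon signals. The receptors signal through Gi proteins to phosphoinositide 3-kinase, phospholipase C and the cytoskeleton.

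The libraries were checked against cell type markers before the chemokine genes were compared. All 12 markers of the leukemic myeloid cells passed the filter, with a summed level from 1689 to 3621 TPM. CD3E, CD3G and CD2 of T cells and MS4A1 of B cells were listed at 0 in every library. Stromal markers were low but present, since 12 of 22 passed the filter, 7 stayed below 1 TPM everywhere and POSTN was at 0. Their summed level lay between 43.8 and 57.2 TPM in control, 59.7 and 60.7 in TCP, and 79.8 and 100.2 in the combination. It was 65.7 TPM in palbociclib replicate 1 and 217.5 in palbociclib replicate 2, which therefore stands apart. Collagen COL1A1 was at 22.2 TPM in that library against 1.32 in the other palbociclib library. The sum is led by a few genes, TPM2, TAGLN and COL6A1 at 17.3, 10.9 and 9.70 TPM in control replicate 1, and reflects the lower markers little. COL1A1 was at 0.18 and 1.23 TPM in control and 2.29 and 3.78 in the combination. In such bulk libraries, fewer cells of a type and less RNA per cell cannot be told apart.

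Against control, most of the calls among chemokine and receptor genes were made in the combination, and most of these were receptors that rose. A gene was called when limma, fitted over all 14151 genes that passed the filter, gave a log2 fold change of 1 or more in either direction with an adjusted p below 0.01. Of the 27 genes, 10 rose in the combination against control, where 5.87% of all genes tested were called higher, and 2 fell, where 7.82% were called lower. By kind, 7 of 11 receptors rose and none fell, while 3 of 16 ligands rose and 2 fell. The median log2 fold change was 1.21 over the receptors and 0.85 over the ligands, against -0.22 over all genes. These 27 exclude genes that were low everywhere, but 21 of them were already at 1 TPM or more in both control libraries, so few passed the filter only through a treated group. Those not at 1 TPM in both controls were CCL20, CCR10, CXCL6, CXCL14, CXCR2P1 and CXCR3. Of these, CXCL14 passed only through the combination, CXCR2P1 only through palbociclib and the combination, and CCR10 only through TCP. CXCL14 and CXCR2P1 are among the 10 that rose, so the filter partly set that count.

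**Figure D1:**
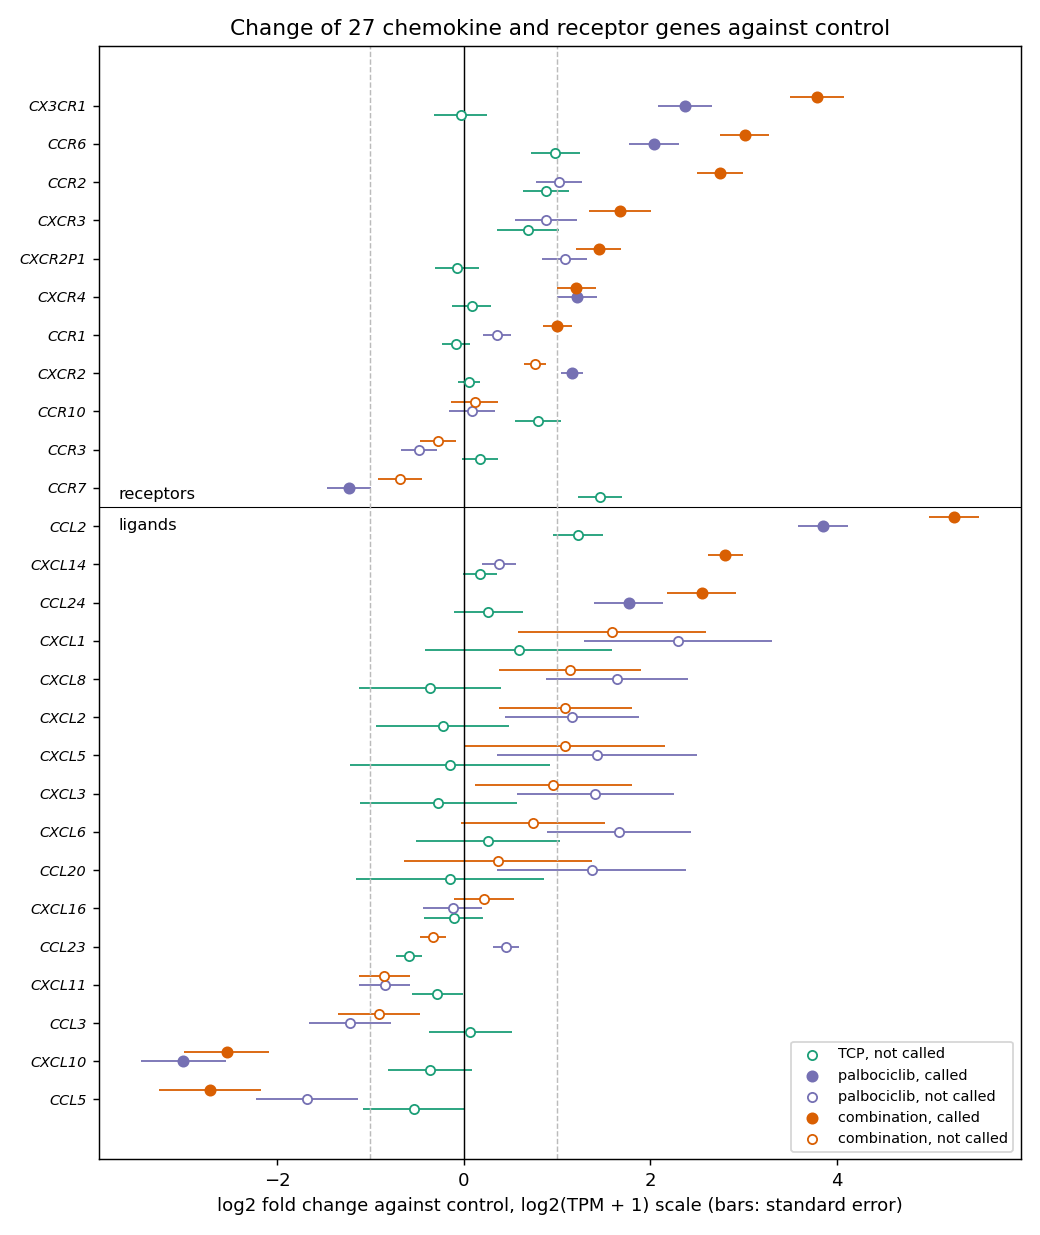
Log2 fold change against control (horizontal axis, log2(TPM + 1) scale) of the 27 chemokine and receptor genes that passed the filter, for TCP, palbociclib and the combination, with bars for the standard error and filled points for called genes. Receptors (upper block) lie mainly to the right in the combination, up to 3.79 for CX3CR1, while among the ligands CCL2 reached 5.25 and CCL5 and CXCL10 lie at -2.72 and -2.54.

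CCR2, the monocyte receptor for CCL2, reached its highest level under the combination. It was at 29.0 and 41.8 TPM in control, 50.7 and 83.6 in TCP, 69.9 and 73.8 in palbociclib, and 226 and 255 in the combination. Both combination libraries were above all 6 others, and the TCP and palbociclib ranges overlapped. The increase against control was 2.75 ± 0.25 (SE) on the log2 scale (limma, adjusted p = 0.00019, n = 2 against 2). Against palbociclib the difference was 1.73 ± 0.25 with a limma adjusted p of 0.018, which does not pass, whereas with the replicate number as a block CCR2 was called against palbociclib (adjusted p = 0.0038) and also for palbociclib against control (1.02, 0.014 without and 0.0022 with the block).

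CX3CR1, the receptor for the membrane-bound chemokine fractalkine, showed a comparable pattern from a low start. Its levels were 2.16 and 2.33 TPM in control, 1.57 and 2.91 in TCP, 11.96 and 20.7 in palbociclib, and 39.2 and 49.0 in the combination. Control and TCP overlapped, palbociclib was above both, and the combination was above palbociclib. The log2 fold change against control was 2.37 ± 0.29 for palbociclib (limma, adjusted p = 0.00092) and 3.79 ± 0.29 for the combination (0.0001). The step from palbociclib to the combination was 1.42 ± 0.29 (limma, adjusted p = 0.049, or 0.009 once the replicate number was a block).

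CCR1 binds CCL3 and CCL5 and is found on monocytes. It measured 94.7 and 76.8 TPM in control, 90.8 and 71.4 in TCP, 101 and 118 in palbociclib, and 164 and 181 in the combination. Both combination libraries were above every other library. Its change in the combination was 1.004 ± 0.15 (limma, adjusted p = 0.0016), just at the fold threshold.

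The genes of CX3CR1, CCR3, CCR1 and CCR2 lie on the short arm of chromosome 3, between positions 39304986 and 46402431 of GRCh37, with CCR2 (46395355-46402431) on the plus strand. CX3CR1, CCR1 and CCR2 rose in the combination, and CCR3, an eosinophil receptor, did not pass the test, with 2.999 and 2.62 TPM in control and 2.10 and 2.17 in the combination. The CCR1 gene (46243202-46249804, minus strand) lies within the annotated span of CCR3 (46172382-46308197, plus strand). The strand setting of the counting is not given in the sources used here, so reads of this overlapping pair may have been assigned to either.

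CXCR4 was the most abundant chemokine receptor in all 8 libraries, where it made up 40.6% to 61.3% of the summed receptor TPM. It was at 137 and 194 TPM in control, 141 and 211 in TCP, 373 and 389 in palbociclib, and 377 and 379 in the combination. All 4 libraries that received palbociclib lay above all 4 that did not, and those with and without TCP overlapped. The log2 fold change was 1.22 ± 0.21 for palbociclib (limma, adjusted p = 0.0039) and 1.21 ± 0.21 for the combination (0.003), and the combination differed from palbociclib by -0.01 ± 0.21 (0.99). Its ligand CXCL12 did not exceed 0.077 TPM in any library.

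CXCR2, the neutrophil receptor for CXCL8 and its relatives, was the one receptor whose called increase was found with palbociclib and not with the combination. It was at 8.48 and 8.33 TPM in control, 8.79 and 8.80 in TCP, 18.2 and 22.0 in palbociclib, and 14.3 and 15.8 in the combination. Palbociclib was highest with no overlap, and the combination was between it and the untreated levels. The increase was 1.16 ± 0.12 with palbociclib (limma, adjusted p = 0.00048) and 0.77 ± 0.12 with the combination (0.0016), which passes the p but not the fold threshold, and the difference between them was -0.39 ± 0.12 (0.14). The pseudogene CXCR2P1, whose sequence resembles CXCR2, was below 0.5 TPM in control and TCP, at 1.35 and 2.29 TPM in palbociclib and at 2.09 and 3.14 TPM in the combination, so that the last 2 groups overlapped. Its log2 fold change was 1.45 ± 0.24 with the combination (limma, adjusted p = 0.0023) and 1.08 ± 0.24 with palbociclib, which did not pass (0.0101, or 0.0039 with the replicate block). CXCR2P1 passed the filter only through palbociclib and combination libraries and so had to be higher there, and its calls are given as a description. Reads may have been exchanged between these copies.

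CCR6, the CCL20 receptor of lymphocytes and immature dendritic cells, rose in steps. Levels were 6.20 and 4.10 TPM in control, 12.6 and 9.53 in TCP, 27.96 and 20.5 in palbociclib, and 58.4 and 39.2 in the combination, with no overlap between any of the 4 groups. The log2 fold change was 2.04 ± 0.27 with palbociclib (limma, adjusted p = 0.0012) and 3.01 ± 0.27 with the combination (0.00017). The difference of 0.97 ± 0.27 between the combination and palbociclib did not pass (0.12).

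CXCR3 binds CXCL9, CXCL10 and CXCL11. It was at 0.65 and 1.13 TPM in control, 1.37 and 2.84 in TCP, 1.82 and 3.22 in palbociclib, and 3.90 and 6.33 in the combination, where it rose by 1.68 ± 0.33 (limma, adjusted p = 0.0051). TCP and palbociclib overlapped in between. CCR10, a receptor for skin chemokines, stayed at or below 1.85 TPM everywhere and was not called in any comparison.

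CCR7, which brings cells to lymph nodes, was the receptor that fell. It was at 2.16 and 1.31 TPM in control, 7.39 and 5.58 in TCP, 0.15 and 0.15 in palbociclib, and 0.93 and 0.47 in the combination, with no overlap between groups. It fell with palbociclib by 1.23 ± 0.24 on the log2 scale (limma, adjusted p = 0.0057), and the combination was lower than TCP by 2.14 ± 0.24 (0.00046). The TCP value of 1.46 ± 0.24 did not pass (limma, adjusted p = 0.074, or 0.022 when blocked by replicate number). CCR7 reached 1 TPM only in control and TCP libraries and so had to be lower in the others, and its calls are given as a description.

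**Figure D2:**
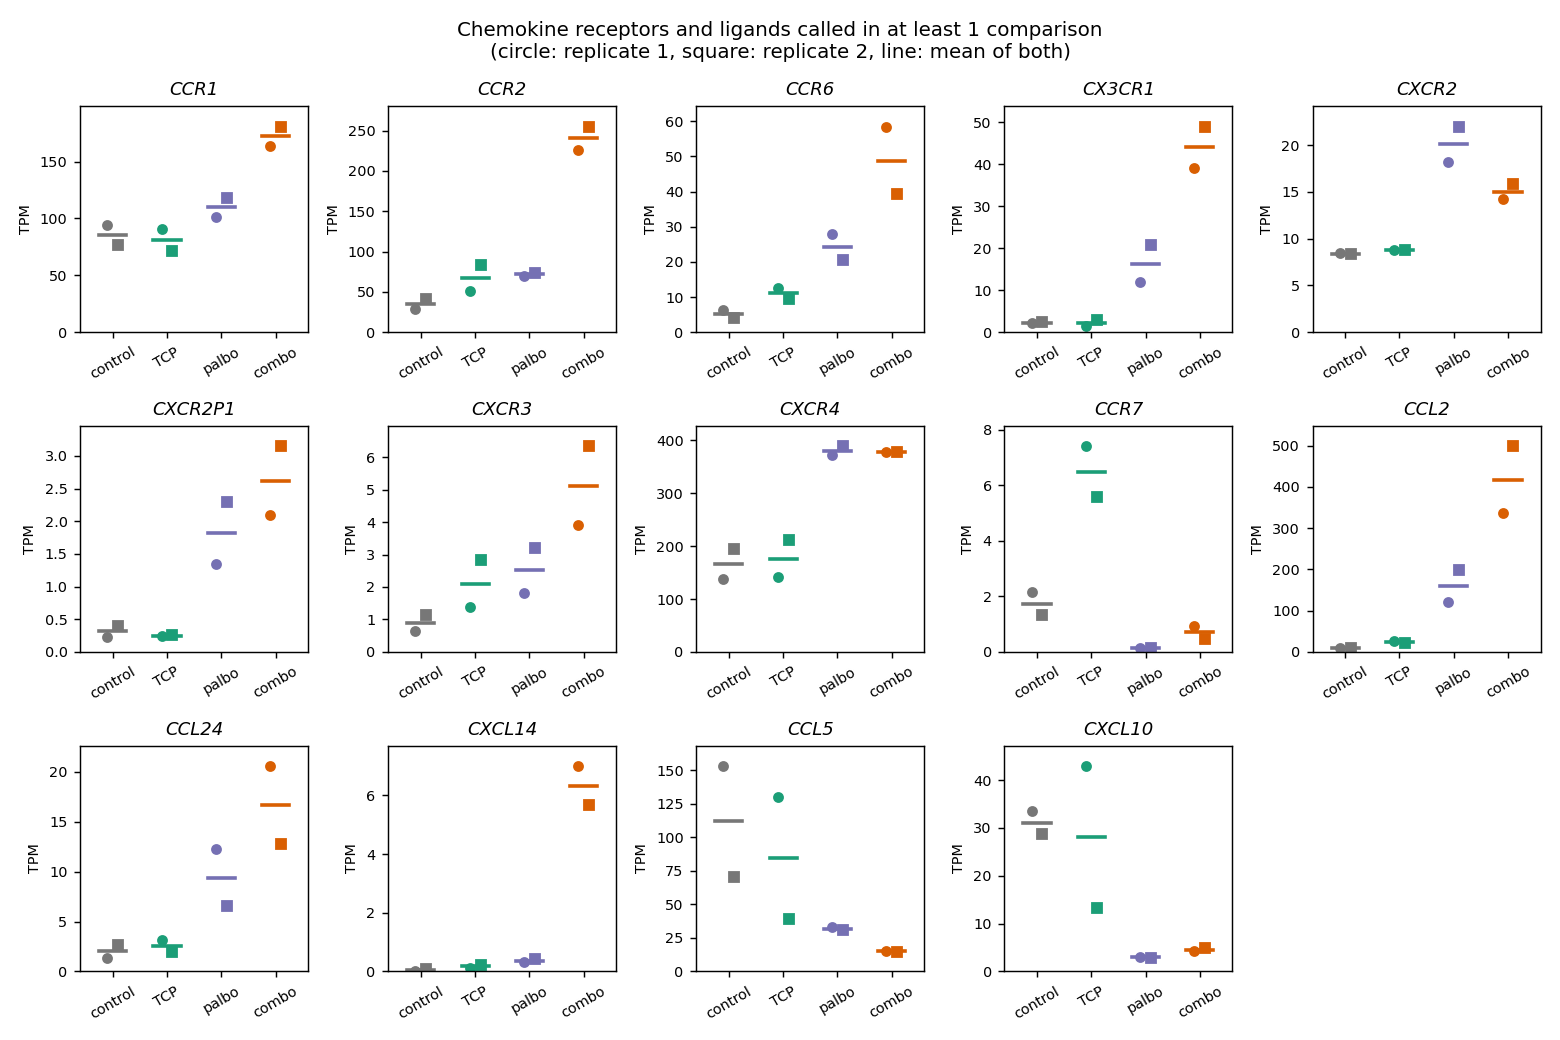
TPM (vertical axis of each panel) of the 14 chemokine and receptor genes called in at least 1 comparison, by group, with a circle for replicate 1, a square for replicate 2 and a line for the mean of both. CCR2, CX3CR1 and CCL2 climb to the combination, CXCR4 is about equally high in palbociclib and the combination, and CXCL10 is low in both.

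Among the ligands, CCL2, the main monocyte attractant, showed the largest increase of the 27 genes on the log2(TPM + 1) scale. With a pseudocount of 0.1 TPM in place of 1, the increase in the combination was 5.38 for CCL2 and 5.51 for CXCL14. CCL2 was at 9.28 and 10.3 TPM in control, 26.7 and 21.8 in TCP, 120 and 199 in palbociclib, and 336 and 498 in the combination. The groups did not overlap and followed the order control, TCP, palbociclib, combination. The log2 fold change was 3.85 ± 0.27 with palbociclib (limma, adjusted p = 0.00014) and 5.25 ± 0.27 with the combination (2.9e-05). Against palbociclib alone the combination was higher by 1.40 ± 0.27, which did not pass (limma, adjusted p = 0.041), and the TCP value of 1.22 ± 0.27 did not either (0.17). CCL2 is also a product of stromal cells, whose summed marker levels are given above, and their part in its level was not tested.

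Less abundant ligands also rose. CCL24, an eosinophil attractant of macrophages that binds CCR3, was at 1.35 and 2.66 TPM in control, 3.20 and 1.95 in TCP, 12.3 and 6.51 in palbociclib, and 20.6 and 12.7 in the combination. The palbociclib and combination libraries lay above the others, and the increase was 1.77 ± 0.37 (limma, adjusted p = 0.0082) and 2.55 ± 0.37 (0.0013). CXCL14, a chemokine of epithelia and myeloid cells, was at 0 and 0.097 TPM in control, 0.13 and 0.24 in TCP, 0.31 and 0.41 in palbociclib, and 7.003 and 5.67 in the combination. Only the combination was above 1 TPM, with a log2 difference of 2.80 ± 0.19 from control and 2.42 ± 0.19 from palbociclib. CXCL14 passed the filter only through the combination libraries and so had to differ there, and its calls are given as a description. Because of the pseudocount of 1 TPM, these log2 values understate a change from such low levels.

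CCL5 and CXCL10 were the ligands that fell. CCL5, which attracts T cells and monocytes through receptors such as CCR1 and CCR3, was at 153 and 70.7 TPM in control, 130 and 39.3 in TCP, 32.9 and 30.9 in palbociclib, and 15.0 and 14.8 in the combination. Control and TCP overlapped widely, and both combination libraries were lowest. It fell by 2.72 ± 0.55 on the log2 scale in the combination (limma, adjusted p = 0.0054), and the palbociclib value of -1.68 ± 0.55 did not pass (0.042). CXCL10, an interferon-induced ligand of CXCR3, was at 33.5 and 28.7 TPM in control, 42.9 and 13.2 in TCP, 3.13 and 2.85 in palbociclib, and 4.20 and 4.82 in the combination. All libraries with palbociclib were below all without it, and CXCL10 fell by 3.01 ± 0.45 with palbociclib (limma, adjusted p = 0.0022) and by 2.54 ± 0.45 with the combination (0.0032).

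CXCL11, from the same interferon-induced pair on chromosome 4, was at 1.90 and 1.43 TPM in control, 0.58 and 0.38 in palbociclib, and 0.48 and 0.47 in the combination, and did not pass (limma, -0.85 ± 0.27 and adjusted p = 0.034 in the combination). CCL3, a macrophage product with near-identical copies in CCL3L1 and CCL3L3, was at 13.6 and 6.85 TPM in control, 3.36 and 3.84 in palbociclib and 3.01 and 7.10 in the combination, without a call. CCL23, a CCR1 ligand of myeloid cells, lay between 16.9 and 41.2 TPM over all libraries and CXCL16, the ligand of CXCR6, between 0.69 and 2.25, and neither was called in any comparison.

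The composition of the ligand mRNA changed with these genes. The summed TPM of the 43 ligands was 279.5 and 296.7 in control, 279.8 and 206 in TCP, 320.5 and 815.5 in palbociclib, and 550.5 and 779.8 in the combination. CCL5 led in replicate 1 of control and TCP (54.8% and 46.4% of the sum), and CXCL8 led in their replicate 2 and in palbociclib replicate 2 (36.7%). CCL2 led in palbociclib replicate 1 (37.4%) and in both combination libraries (61.1% and 63.8%). The summed TPM of the 17 receptors was 284.8 and 333.3 in control, 321.5 and 400.5 in TCP, 608.7 and 652 in palbociclib, and 889.6 and 931.8 in the combination. The receptor sums lay closer together than the ligand sums within palbociclib and the combination, and farther apart within control.

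**Figure D3:**
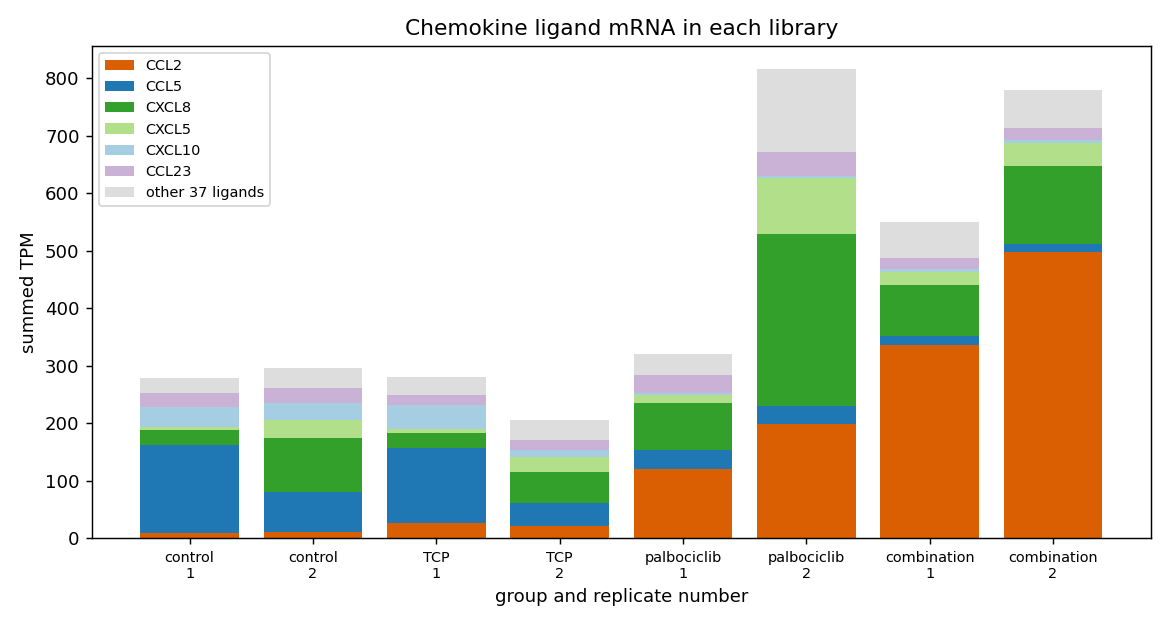
Summed TPM of the chemokine ligand genes (vertical axis) in each of the 8 libraries, stacked by gene. CCL5 takes the largest share in replicate 1 of control and TCP, CXCL8 in palbociclib replicate 2, and CCL2 in both combination libraries (61.1% and 63.8%).

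Ligands and receptors that bind each other did not always move together. In the combination CCL2 and its receptor CCR2 both rose, whereas CCL5 fell while CCR1 rose, and CXCL10 fell while CXCR3 rose. CCR6 rose with its ligand CCL20 at 1.16 and 2.28 TPM in the combination, CXCR4 rose with CXCL12 near 0, and CX3CR1 rose with its ligand CX3CL1 listed at 0 in every library. The CCR7 ligands CCL19 and CCL21 did not exceed 0.16 and 0 TPM.

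The neutrophil-attracting ligands CXCL1, CXCL2, CXCL3, CXCL5, CXCL6 and CXCL8 form, with CXCL10 and CXCL11, a group of 8 expressed genes on chromosome 4 (74606236-76962568, GRCh37). To show the matched stretch and its surroundings, 60 bases upstream of the start site are given for the genes with a match to the NF-kB consensus motif, together with CCL20 on chromosome 2. The sequences are from RefSeq on GRCh38.p14, read 5′ to 3′ on the strand of the gene, with the matched bases in capitals.
CXCL1 (chr4:73869284-73869343, plus strand): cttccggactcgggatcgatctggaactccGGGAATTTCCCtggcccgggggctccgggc
CXCL2 (chr4:74099244-74099303, minus strand): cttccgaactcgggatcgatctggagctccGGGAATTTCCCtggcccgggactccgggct
CXCL3 (chr4:74038739-74038798, minus strand): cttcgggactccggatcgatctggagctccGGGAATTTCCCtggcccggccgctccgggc
CXCL5 (chr4:73998739-73998798, minus strand): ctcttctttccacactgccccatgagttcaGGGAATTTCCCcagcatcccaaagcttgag
CXCL6 (chr4:73836558-73836617, plus strand): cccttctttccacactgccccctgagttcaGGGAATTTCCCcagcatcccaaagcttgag
CCL20 (chr2:227813733-227813792, plus strand): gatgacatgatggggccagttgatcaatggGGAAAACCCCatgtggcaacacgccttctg
CXCL11 (chr4:76036117-76036176, minus strand): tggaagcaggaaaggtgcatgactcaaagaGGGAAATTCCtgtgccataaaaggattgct
CXCL10 (chr4:76023590-76023649, minus strand): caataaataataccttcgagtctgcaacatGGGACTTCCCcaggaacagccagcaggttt

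Without gaps, CXCL1 and CXCL3 share 55 of the 60 bases, CXCL1 and CXCL2 share 51, and CXCL5 and CXCL6 share 58, against 24 both for CXCL1 and CXCL5 and for CCL20 and CXCL10. The match, which reads almost the same on both strands, lies 69 to 79 bases before the start in CXCL1 and CXCL3 and 81 to 91 bases before it in CXCL5. A RefSeq promoter was found for 21 of the 27 genes, and CCL2, CCL5, CCR7, CCR10, CXCL16 and CXCR2P1 had none. On either strand of the 250 bases before the start, the NF-kB consensus was found in 9 of these 21 (42.9%), in 8 of 13 ligands and in 1 of 8 receptors (CCR3), against 5.05% of 27305 promoters of the same length. The interferon response motif GAAANNGAA was found in 8 of 21 (38.1%, against 7.06% of all promoters), among them CXCL10, CCR2, CCR6 and CXCR2. The C/EBP motif TTGCNNAA was found in 4 (19.0% against 9.13%) and the PU.1 motif GAGGAAGT in 2 (9.52% against 2.13%), CCL23 and CXCR3. CXCL8 had no exact match to the NF-kB consensus in its window, and sites that deviate from the consensus were not searched. No match of 1 of these motifs overlapped a match of another in these genes, and a match describes letters only.

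The levels of this ligand group differed widely between the libraries of 1 group. CXCL8, the main neutrophil attractant, was at 25.8 and 93.9 TPM in control, 27.2 and 54.0 in TCP, 81.8 and 299 in palbociclib, and 89.5 and 135 in the combination. Replicate 2 was higher than replicate 1 in each group, and palbociclib and the combination overlapped with control. The palbociclib value of 1.65 ± 0.76 on the log2 scale did not pass (limma, adjusted p = 0.12), but CXCL8 was called when the replicate number was a block (adjusted p = 0.0057), as it was for the combination against TCP (0.14 without and 0.0075 with the block).

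CXCL5, the other abundant member, was at 6.01 and 31.1 TPM in control, 5.91 and 25.7 in TCP, 15.4 and 98.5 in palbociclib, and 23.4 and 40.7 in the combination. CXCL1 was at 1.33 and 4.01 TPM in control, 1.82 and 8.32 in TCP, 4.75 and 48.1 in palbociclib, and 7.94 and 10.8 in the combination. For both, replicate 2 was again the higher library in all 4 groups. CXCL2, CXCL3, CXCL6 and CCL20 had the same order within every group, with ratios of replicate 2 to replicate 1 in palbociclib of 4.67, 4.74, 10.0 and 27.3. None of the 7 genes was called in any comparison when all libraries were fitted without the block, but CCL20 and CXCL6 were called for palbociclib against control without palbociclib replicate 1.

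Of the 27 genes, 12 (44.4%) were higher in replicate 2 in 4 of 4 groups, against 14.9% of all genes tested and 9 of 12 stromal markers. Among the 9, COL3A1, DCN and LOX reached 1 TPM only in replicate 2 libraries, so the filter partly set the count of stromal markers. With the replicate number as a block, the limma coefficient of replicate 2 against 1 passed the thresholds for 0 of 14151 genes, and 3838 genes, 13 of the 27 among them, had an unadjusted p below 0.05. It was largest among the 27 for CXCL5, at 1.88 ± 0.28 (adjusted p = 0.046). Stromal markers moved the same way: COL1A1 was at 0.18 and 1.23 TPM in control, 0.15 and 1.79 in TCP, 1.32 and 22.2 in palbociclib, and 2.29 and 3.78 in the combination. The ratio of the palbociclib libraries was 16.8 for COL1A1, 3.66 for CXCL8 and 10.1 for CXCL1. No stromal marker was called in any comparison, and the part of stromal RNA in these ligand values was not tested. CCL7 and CCL8, under the filter, were also highest in palbociclib replicate 2, at 4.62 and 2.44 TPM. For palbociclib against control, the calls of CCL24, CCR7, CXCL10 and CXCR4 were lost without that library. The same calls were lost without palbociclib replicate 1, and leaving out either control library also lost calls.

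**Figure D4:**
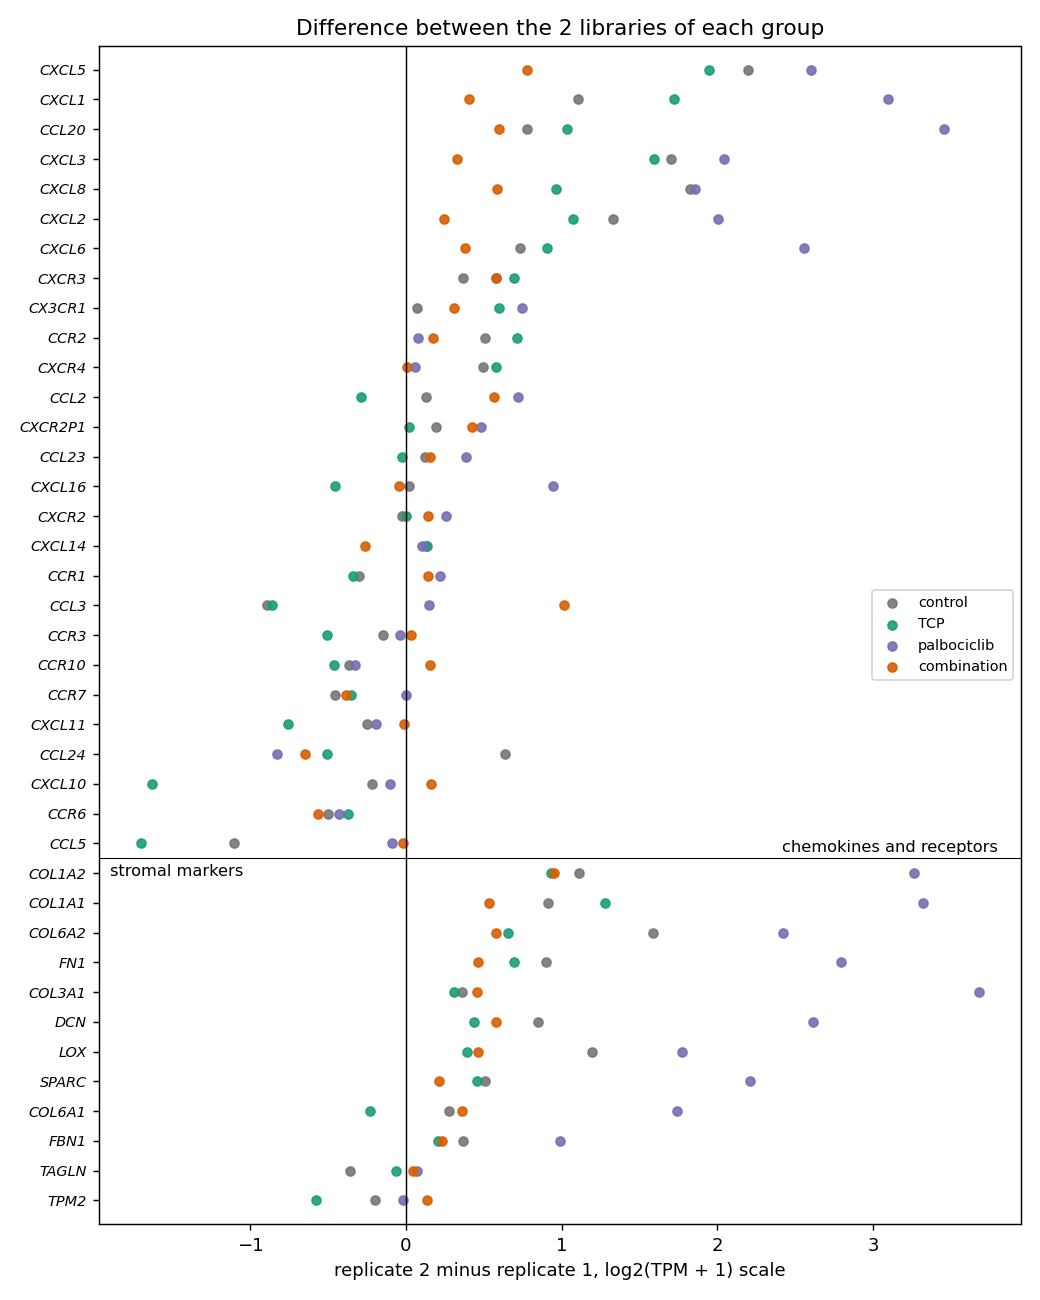
Difference of replicate 2 minus replicate 1 (horizontal axis, log2(TPM + 1) scale) for the 27 chemokine and receptor genes (upper block) and the 12 tested stromal markers (lower block), 1 point per group. CCL20 and the CXC ligands CXCL1, CXCL2, CXCL3, CXCL5, CXCL6 and CXCL8 are to the right of 0 in all 4 groups and farthest in palbociclib (1.86 for CXCL8 and 2.60 for CXCL5), and most stromal markers show the same order. Of these markers, COL3A1, DCN and LOX passed the filter only through replicate 2 libraries.

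Palbociclib alone gave 6 higher genes, where 4.54% of all genes were called higher, and 2 lower, where 4.56% were called lower. The genes that rose were CCL2, CCL24, CCR6, CX3CR1, CXCR2 and CXCR4, and those that fell were CCR7 and CXCL10. The median was 1.08 over the 27 genes against -0.16 over all genes. With the replicate block 11 were called, CCR2, CXCL8 and CXCR2P1 being added. The calls of CCL2 and CXCR2 held under every alternative setting run. That of CX3CR1 was lost with no filter on low values (adjusted p = 0.013) and that of CCR6 also without control replicate 2 (at most 0.016). The call of CCL24 was lost in 11 of 17 alternatives (at most 0.059), including without each of the 8 libraries in turn. Those of CXCL10 and CCR7 were lost in 5 of 17 (at most 0.025) and 6 of 16 (at most 0.037), in each case without either control or either palbociclib library. That of CXCR4 was lost in 6 of 17 (at most 0.036), among them without control replicate 1 and without each palbociclib or combination library.

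The calls of the combination against control held under every alternative for CCL2, CCR2, CCR6 and CX3CR1. That of CXCL14 held in the 16 alternatives that tested it, but CXCL14 passed the filter only through the combination libraries, so this is a description. Those of the other 7 genes were lost with no filter on low values and without at least 1 of the control or combination libraries, with adjusted p values up to 0.048, and none reversed. The combination was called above palbociclib alone for 1 gene, CXCL14, which entered the fit only through the combination, where 0.459% of all genes were called higher, and no gene fell, where 0.0424% were called lower. With the replicate block 3 were called, CCR2 and CX3CR1 being added. CXCL14 lost this call in 7 of 16 alternatives (adjusted p up to 0.052), among them those without control replicate 1 and without each palbociclib or combination library. Against TCP, 9 genes were higher in the combination (5.46% of all genes) and 2, CCR7 and CXCL10, were lower (6.7%). The 9 include CXCL14 and CXCR2P1, neither of which reached 1 TPM in a TCP library. CCR7 reached 1 TPM only in control and TCP libraries. These genes had to differ in that direction, so the filter partly set both counts.

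TCP alone changed none of the 27 genes by the thresholds (limma), where 0.0565% of all genes were called, while 6 of the 27 and 1241 of all 14151 genes had an unadjusted p below 0.05. The 6 were CCL2, CCR2, CCR6, CCR7 and CCR10, all above control in both libraries, and CCL23, below control in both at 17.2 and 16.9 TPM. CCR10 passed the filter only through the TCP libraries (1.85 and 1.07 TPM) and so had to be higher there, and its place among the 6 is a description. The median over the 11 receptors was 0.17 against -0.04 over all genes. The interaction of TCP and palbociclib, which compares the effect of one molecule with and without the other, was called for 0 of the 27 and 0.0% of all genes by limma, with an unadjusted p below 0.05 for 6 of the 27 and 904 of the 14151. The largest interaction was that of CXCL14, which passed the filter only through the combination libraries. Its value of 2.25 ± 0.26 did not pass (limma, adjusted p = 0.17) and is given as a description. These comparisons share control or single-molecule libraries and are not independent.

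Receptors for other chemoattractants also rose. Of 14 tested receptors for formyl peptides, complement fragments, lipids and related signals, 8 rose with palbociclib and 9 with the combination, where 4.54% and 5.87% of all genes were called higher, and none fell. Their median log2 fold change was 1.21 and 1.95. The 8 include HRH4, which passed the filter only through palbociclib libraries. The 9 include C5AR1 and CMKLR1, which passed only through combination libraries. These receptors had to be higher there, so the filter partly set the counts and medians. FPR1, which senses bacterial formyl peptides, was at 0.35 and 0.63 TPM in control, 1.21 and 1.14 in TCP, 21.2 and 18.6 in palbociclib, and 74.2 and 54.7 in the combination. The combination was above palbociclib by 1.63 ± 0.18 (limma, adjusted p = 0.0076). C5AR1, the receptor of complement C5a, was below 1 TPM in all other libraries and at 5.39 and 4.60 TPM in the combination. CMKLR1, the chemerin receptor, had the same pattern, below 1 TPM in all other libraries and at 3.604 and 3.08 TPM in the combination. Both passed the filter only through the combination, so their levels are a description and no test is given. GPR183, the oxysterol receptor, went from 8.99 and 11.96 TPM in control to 66.2 and 77.7 in palbociclib and 106 and 119 in the combination.

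Of 39 genes of the signalling chain behind the receptors, 3 rose with palbociclib, a share close to the 4.54% of all genes, and 8 with the combination, where the share of all genes was 5.87%. None fell, and the median was 0.25 in the combination. Those that rose were led by FGR, a Src family kinase of phagocytes, at 19.8 and 22.0 TPM in control, 206 and 213 in palbociclib and 217 and 229 in the combination. GNG2, a G protein gamma subunit, was the member that differed between the combination and palbociclib, at 8.20 and 6.23 against 1.48 and 1.05 TPM (limma, 1.85 ± 0.20, adjusted p = 0.0079). Of 13 tested enzymes that trim or modify chemokines, 4 rose with palbociclib and 4 rose and 1 fell with the combination, with the same shares of all genes called higher and 4.56% and 7.82% called lower. Each 4 includes PADI2, which passed the filter only through palbociclib and combination libraries and so had to be higher there. CTSS, cathepsin S, was at 55.6 and 48.7 TPM in control, 43.9 and 37.5 in palbociclib and 120.1 and 95.4 in the combination, which was above palbociclib by 1.38 ± 0.16 (limma, adjusted p = 0.0092). PRTN3, proteinase 3, was at 971 and 831 TPM in control, 4401 and 3798 in palbociclib and 2534 and 1918 in the combination, while CTSG, cathepsin G, fell to 9.77 and 13.5 TPM in the combination from 76.1 and 49.9 in control. Of 14 tested inflammatory cytokines none was called higher, where 4.54% and 5.87% of all genes were with palbociclib and the combination. VEGFA fell with palbociclib (4.56% of all genes), and VEGFA and IL18 fell with the combination (7.82%). With the replicate block, 1 was called higher and 2 lower in the combination, and 2 lower with palbociclib. The median of the 14 was -0.08 in the combination. IL1B was at 2.84 and 26.3 TPM in control and 61.9 and 69.2 in the combination, without passing (limma, 2.70 ± 1.07, adjusted p = 0.069). Neither of the tested atypical receptors, ACKR3 and CCRL2, was called.

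Of the 33 chemokine and receptor genes under the filter, 10 were at 0 in every library and 9 reached 0.5 TPM in at least 1. The 9 were CCL3L1, CCL3L3, CCL4, CCL7, CCL8, CCL25, CCL27, CXCR1 and CXCR5. CCL4, which has near-identical copies, reached 1.47 TPM in combination replicate 1, and CXCR1, the second CXCL8 receptor, 0.73 TPM in combination replicate 2.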

How the data were processed

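RNA-seq libraries of MV4-11 cells were prepared by the authors with a stranded mRNA kit, aligned to hg19 with subread-align, counted with featureCounts 1.6.4 and converted to TPM, and SAMtools 1.9 and DESeq2 1.26.0 are also named in the submitters' processing notes. The deposited values are TPM per gene symbol. The annotation, gene lengths and strand setting are not given in the sources used here, depth is unknown from TPM, and no interval that needs counts is given. All 8 libraries were assigned to their groups from the labels.

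Log2(TPM + 1) was fitted for the 14151 of 26364 genes at 1 TPM or more in at least 2 libraries, with limma 3.58.1 in R 4.3.3, 1 coefficient per group over all libraries, a mean-variance trend and 4 residual degrees of freedom. A call required a log2 fold change of 1 or more in either direction and an adjusted p below 0.01 (Benjamini-Hochberg over all genes tested). Errors are standard errors of the log2 fold change. Permuting 4 libraries exactly allows no p under 0.333 for a gene, so no such test is given. Same-numbered libraries deviated together from their group means (r from 0.17 to 0.49 over 14151 genes in the 6 pairs of groups), a pairing seen in the data and not stated by the labels, and a fit with the replicate number as a block was run beside the main one. The alternatives changed the pseudocount, filter, scaling, trend, threshold, samples fitted and each library in turn. The script was tested on simulated data.

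The genes and all lists were chosen with earlier results of these data known. One gene that the symbol rule matches is not reported here, and it is left out of the counts, sums and medians of the chemokine and receptor genes. The other 27 tested genes are described, and genes of other lists, cell type markers aside, are named where they lead their list or differ between the combination and palbociclib. Coordinates are from GENCODE on GRCh37, and promoters from RefSeq on GRCh38.p14.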

Additional observations from a re-analysis of the deposited data

Results flagged for a closer look

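CXCR2 is given here because both TCP libraries were above both controls, by very little, and both combination libraries were below both palbociclib libraries. The difference between the effects of TCP was -0.45 ± 0.16 (limma interaction, adjusted p = 0.73). Groups of 2 libraries allow no check for a single aberrant sample.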

How the results depend on the processing

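Of the 32 calls of a gene in a comparison, 11 held under every alternative run that tested the gene, 21 were lost under at least 1 and 0 reversed. Testing without a filter on low values lost 20 of them, and the replicate block, quantile normalization, median-ratio scaling and the looser adjusted p threshold of 0.05 lost 0. For palbociclib against control (8 genes called), 2 were called with no filter, and 4 to 9 when 1 library was left out, with 4 without control replicate 1, control replicate 2 or palbociclib replicate 2. For the combination against control (12), 5 were called with no filter, and 6 to 12 with 1 library left out, with 6 without control replicate 1 or combination replicate 2 and 7 without combination replicate 1. For the combination against TCP (11), 4 were called with no filter, and 6 to 10 with 1 library left out, with 6 without combination replicate 2. For the combination against palbociclib (1), the count was 0 with a pseudocount of 0.1, with only the groups compared and with a mean of at least 5 TPM, where CXCL14 was not tested, 3 with the replicate block, 4 at an adjusted p below 0.05, and 0 to 1 with 1 library left out, with 0 without control replicate 1 or any 1 of the palbociclib and combination libraries. TCP against control and the interaction gave 0 under all. With the replicate block 11 were called for palbociclib against control and 13 for the combination against TCP, and the 12 of the combination against control stayed 12. Some alternatives test fewer genes or leave fewer libraries, and the cause of the other changes was not tested. Median-ratio scaling moved the median log2 fold change of all genes in the combination against control from -0.22 to -0.01, and that of the 27 genes from 1.004 to 1.23. The coefficient of replicate 2 against 1 was added after seeing the data. With 2 libraries per group and no counts, differences near the thresholds could not be resolved.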
